A study of Mus musculus with 4 samples.

Results

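The genes for subunits of ligand-gated neurotransmitter receptors are described here by their replication timing (RT) in diploid F121-9 mouse embryonic stem cells (mESCs). Members were chosen by symbol among the protein-coding genes of GENCODE vM21 on chromosomes 1 to 19, as the numbered subunits named *Gabra*, *Gabrb*, *Gabrg*, *Gabrr*, *Gria*, *Grik*, *Grin1*, *Grin2*, *Grin3*, *Grid*, *Chrna*, *Chrnb* and *Glra*. Described here are 42 of 20807 genes, and all 42 had an RT value at the start and in every bin of the body. F121-9 is a cas/129 hybrid line, grown in N2B27 medium with 2i and LIF, which keep mESCs undifferentiated, and the labels name no treatment. In Repli-seq, newly made DNA is labeled with BrdU, cells in the first and second part of S-phase are separated by their DNA content, and the BrdU-labeled DNA is then pulled down and sequenced for each fraction. There were 2 early and 2 late fraction libraries of this single line, and the deposited value for each 50 kb bin is RT, a log2 ratio of library-scaled reads (RPM) with the early fraction over the late one. RT above 0 therefore means more early than late signal. There is 1 value per bin and none per library, so no spread between replicates can be given. Read depth is unknown, and no test between genes or groups was possible. As a guide to noise, the deviation of a bin from the mean of its neighbors over the autosomes corresponded to an SD of 0.14, which does not cover differences between cultures.

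These receptors are ion channels that open when a transmitter binds and so carry fast signals at synapses. GABA-A and glycine receptors pass chloride and mostly inhibit neurons, whereas ionotropic glutamate receptors (AMPA, kainate and NMDA types, with the related delta subunits) and nicotinic acetylcholine receptors pass cations and excite neurons or muscle. GABA-A, glycine and nicotinic receptors are pentamers of one gene superfamily, glutamate receptors are tetramers of another, and the subunit make-up sets where and how each receptor works. Early replication is generally found in active, gene-rich chromatin and late replication in inactive chromatin at the nuclear periphery. Expression was not measured in these samples.

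Promoter sequences are shown first, for the earliest and the latest start within each receptor family among members with an entry in the RefSeq promoter table (GRCm38.p6, the mm10 assembly; the glycine family has 1), because their CpG content is set against RT further on. Each runs 5' to 3' from 250 bases before to 50 bases after a RefSeq gene start, and capitals mark CpG, the letters CG, which read the same on both strands. The early promoters are those of *Gabrr2* (chr4:33062862-33063161, plus strand), *Grin3b* (chr10:79970474-79970773, plus strand) and *Chrnb2* (chr3:89764583-89764882, minus strand). The late promoters are those of *Gabra2* (chr5:71095800-71096099, minus strand), *Gria4* (chr9:4796185-4796484, minus strand), *Chrna7* (chr7:63212477-63212776, minus strand) and *Glra3* (chr8:55940168-55940467, plus strand).
Gabrr2: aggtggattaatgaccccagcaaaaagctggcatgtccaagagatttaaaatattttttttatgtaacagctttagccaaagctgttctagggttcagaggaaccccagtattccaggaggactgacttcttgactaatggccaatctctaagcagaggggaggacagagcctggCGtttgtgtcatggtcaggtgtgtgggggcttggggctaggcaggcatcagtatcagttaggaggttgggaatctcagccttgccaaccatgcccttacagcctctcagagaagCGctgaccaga
Grin3b: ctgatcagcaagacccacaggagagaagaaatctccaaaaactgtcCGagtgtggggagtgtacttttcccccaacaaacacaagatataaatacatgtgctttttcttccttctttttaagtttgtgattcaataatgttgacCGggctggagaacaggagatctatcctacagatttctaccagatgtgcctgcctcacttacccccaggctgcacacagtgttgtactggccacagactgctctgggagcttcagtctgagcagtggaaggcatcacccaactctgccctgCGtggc
Chrnb2: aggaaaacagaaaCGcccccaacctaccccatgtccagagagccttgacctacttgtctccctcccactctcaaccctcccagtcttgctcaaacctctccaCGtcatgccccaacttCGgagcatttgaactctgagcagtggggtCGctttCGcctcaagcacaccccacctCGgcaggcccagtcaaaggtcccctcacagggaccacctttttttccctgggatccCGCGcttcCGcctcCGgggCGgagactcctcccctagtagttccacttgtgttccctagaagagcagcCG
Gabra2: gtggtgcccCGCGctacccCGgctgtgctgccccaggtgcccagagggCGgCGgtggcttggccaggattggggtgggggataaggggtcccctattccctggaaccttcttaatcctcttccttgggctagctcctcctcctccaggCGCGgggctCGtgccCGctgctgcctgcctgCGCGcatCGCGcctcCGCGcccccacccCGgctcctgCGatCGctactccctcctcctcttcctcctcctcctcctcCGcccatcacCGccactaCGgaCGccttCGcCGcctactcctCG
Gria4: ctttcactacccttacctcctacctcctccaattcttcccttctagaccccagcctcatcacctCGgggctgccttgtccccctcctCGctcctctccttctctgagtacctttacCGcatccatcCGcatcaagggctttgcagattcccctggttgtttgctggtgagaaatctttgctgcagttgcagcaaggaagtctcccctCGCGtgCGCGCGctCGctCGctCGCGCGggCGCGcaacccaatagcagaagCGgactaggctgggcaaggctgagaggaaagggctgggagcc
Chrna7: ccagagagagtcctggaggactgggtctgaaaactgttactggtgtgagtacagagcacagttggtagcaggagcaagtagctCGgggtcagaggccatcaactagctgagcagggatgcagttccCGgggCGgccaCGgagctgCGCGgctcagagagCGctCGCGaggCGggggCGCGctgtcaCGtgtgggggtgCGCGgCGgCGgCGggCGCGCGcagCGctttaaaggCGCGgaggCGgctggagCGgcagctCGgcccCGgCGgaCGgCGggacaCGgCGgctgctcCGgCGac
Glra3: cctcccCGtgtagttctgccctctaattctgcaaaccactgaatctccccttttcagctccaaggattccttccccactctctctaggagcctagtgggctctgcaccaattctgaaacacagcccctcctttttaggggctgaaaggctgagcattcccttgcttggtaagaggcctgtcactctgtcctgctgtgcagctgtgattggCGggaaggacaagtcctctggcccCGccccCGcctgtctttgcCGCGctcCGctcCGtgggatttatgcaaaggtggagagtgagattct

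Receptor subunit genes started at RT from -4.06 at *Grik1* to 3.80 at *Grin3b*, within a range of -5.21 to 4.93 over all autosomal bins. RT at the start was above 0 in 23 of the 42 members, or 54.8% (exact 95% interval 38.7% to 70.2%, which covers counting only and treats neighbors as independent), where 74.1% of all 20732 protein-coding genes with a value were above 0. The median RT at the start was 1.71 (order-statistic 95% interval -1.77 to 2.57) against 2.35 over all protein-coding genes and -0.85 over all autosomal bins. Averaged over the body, RT was above 0 in 22 members, where the background was 73.6%, and the median of these body means was 0.60 (order-statistic 95% interval -1.77 to 2.62) against 2.31. Few members lie near 0, so both medians depend on which genes are counted, and with the 4 genes on chromosome X added they were -0.05 at the start and -0.65 over the body. RT was at or below -3 at 11 starts, where the background was 6.9%, and at or above 3 at 9, where it was 36.8%. The 11 are not independent, as *Gabrg1*, *Gabra2*, *Gabra4* and *Gabrb1* lie close together on chromosome 5 and *Gabrg3* and *Gabra5* on chromosome 7. Between -1 and 1 there were 3 members, *Chrna2*, *Grin2a* and *Gria2*, against a background of 15.4%. Of the 41 pairs of neighbors in the order of RT, 33 were no further apart than 0.38, which is 2 SD of the difference between bins, so the order of most neighbors cannot be told from noise.

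**Figure D1:**
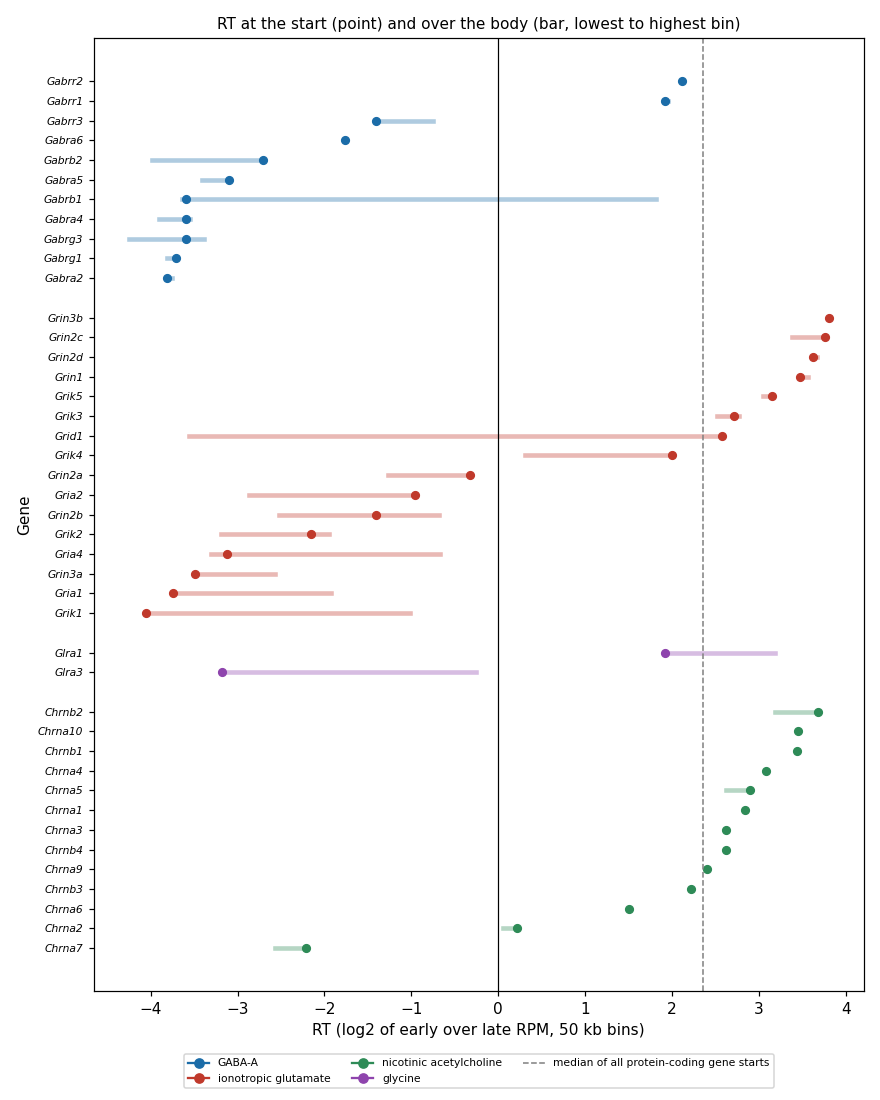
RT of the 42 members, by receptor family. Points are RT at the gene start, bars run from the lowest to the highest bin of the gene body, the solid line is RT 0 and the dashed line is the median start of all protein-coding genes, 2.35. Of the nicotinic genes 12 of 13 lie right of 0, and of the GABA-A genes 9 of 11 lie left of it.

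The families differed in how many members were early, with all but 1 nicotinic gene above 0, most GABA-A genes below it and the glutamate receptor genes divided. RT at the start was above 0 in 12 of 13 nicotinic genes (median 2.62), 8 of 16 glutamate receptor genes (median 0.83), 2 of 11 GABA-A genes (median -3.09) and 1 of 2 glycine receptor genes. These medians rest on genes that partly share bins and domains, and the differences between families were not tested. Read over whole bodies, 177 different bins carried members and 51 of them, 28.8%, were above 0. For all protein-coding genes the share was 58.7% of 27870 bins. A long gene counts here with all its bins.

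GABA-A subunits assemble mainly from alpha, beta and gamma chains, and most of their genes stand in 3 clusters that arose by duplication. On chromosome 5, *Gabrg1* had an RT of -3.71, *Gabra2* of -3.82, and *Gabra4* and *Gabrb1*, which share a start bin, of -3.59. *Gabra4* and *Gabrb1* are transcribed away from each other from starts that overlap at chr5:71658113-71658308. On chromosome 7, *Gabrg3* had an RT of -3.60 and *Gabra5* of -3.09. On chromosome 11, *Gabra6*, known from cerebellar granule cells, had an RT of -1.77 and *Gabrb2* of -2.71, a difference of 0.94. These 8 starts were thus all late, and those of chromosome 11 less so than those of chromosomes 5 and 7. Over the bodies this order did not hold, with means of -3.43 in *Gabrb2*, -3.23 in *Gabra5* and -1.35 in *Gabrb1*. The chromosome 7 genes lay in a run of bins below 0 of 7350 kb, from 56250001 to 63600000, and the chromosome 5 genes in one of 4250 kb, from 67750001 to 72000000. The same chromosome 7 run also held *Chrna7*, the single late nicotinic gene.

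The *Gabrr* genes, whose products form GABA-gated channels of the retina, included the earliest GABA-A genes among the members. Outside the naming rule, the GABA-A subunit genes *Gabrp* and *Gabrd* started earlier, at 3.80 and 3.18. *Gabrr2* had an RT of 2.12 and *Gabrr1* of 1.92, next to each other on chromosome 4 in an early run of 1250 kb. *Gabrr3*, on chromosome 16 and in no cluster, had an RT of -1.40.

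**Figure D2:**
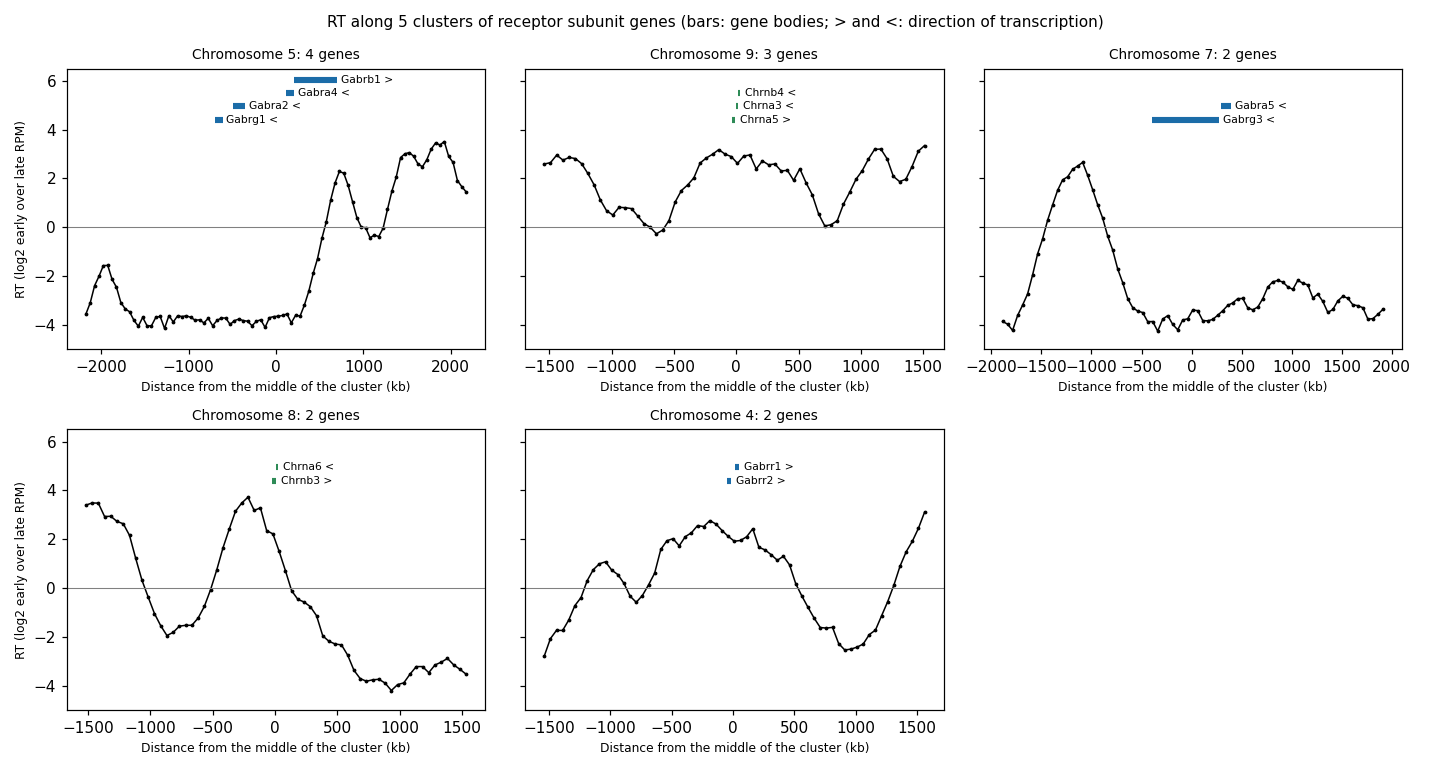
RT in 50 kb bins (points, log2 of early over late RPM) against distance from the middle of 5 of the 6 clusters, with gene bodies as bars (blue GABA-A, green nicotinic) and arrows for the direction of transcription. The clusters of chromosomes 5 and 7 start at RT -3.09 or lower, and those of chromosomes 9, 8 and 4 start at 1.51 or higher.

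Among glutamate receptor genes, timing differed between subunits of the same receptor type. For NMDA receptors, *Grin1*, the subunit that every NMDA receptor contains, had an RT of 3.47. The glutamate-binding subunits were divided, with *Grin2c* at 3.76 and *Grin2d* at 3.62 but *Grin2a* at -0.33 and *Grin2b* at -1.41. *Grin2a* and *Grin2b* are the main forebrain forms. The GluN3 subunits, which bind glycine as *Grin1* does, lay at opposite ends, *Grin3b* at 3.80 and *Grin3a* at -3.49, a difference of 7.29 log2. *Grin3b* was the earliest of all members, earlier than 97.7% of protein-coding gene starts.

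For kainate receptors, *Grik5* had an RT of 3.15, *Grik3* of 2.71 and *Grik4* of 1.99, while *Grik2* was at -2.16 and *Grik1* at -4.06. *Grik4* and *Grik5* encode the subunits that need a partner to form a channel, and *Grik1*, *Grik2* and *Grik3* those that can form one alone, so subunits of the second kind were found both early and late. The AMPA genes were all below 0. *Gria1* had an RT of -3.74, *Gria4* of -3.12 and *Gria2*, whose edited subunit keeps AMPA receptors from passing calcium, of -0.96. *Grid1*, a delta subunit gene, had an RT of 2.57. *Grik1* was the latest of the members, and 0.37% of protein-coding genes start at a lower RT.

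The nicotinic genes of the muscle receptor, the most common brain receptor and the cochlear receptor were early. This does not hold for all nicotinic genes, as *Chrna2* and *Chrna7* lay lower, at 0.22 and -2.21. *Chrna1* and *Chrnb1*, of the muscle receptor, had an RT of 2.83 and 3.44. *Chrna4* and *Chrnb2*, which make the most common receptor of the brain, had an RT of 3.08 and 3.67. *Chrna9* and *Chrna10*, of the receptor of cochlear hair cells, had an RT of 2.40 and 3.45. Each of these pairs is split between chromosomes, and both partners of each were above 2.

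The nicotinic clusters were early as well. *Chrna5*, *Chrna3* and *Chrnb4*, whose products join in receptors of autonomic ganglia, lay on chromosome 9 with RT of 2.90, 2.62 and 2.62, the last 2 in the same bin. *Chrnb3* and *Chrna6*, expressed in dopamine neurons, lay on chromosome 8 at 2.22 and 1.51. There they stood on the falling side of an early run of only 600 kb, whose highest bin had an RT of 3.72 and lay 200 kb before the bin where *Chrnb3* starts. *Chrna2* was near the middle at 0.22. *Chrna7*, which forms receptors on its own, was late at -2.21, and RT over its body stayed between -2.57 and -2.21.

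The glycine receptor genes on the autosomes were divided. *Glra1*, the main alpha subunit of the adult spinal cord, had an RT of 1.92 at its start and 3.19 at its end. *Glra3* had an RT of -3.18 at its start and -0.25 at its end.

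Start and body mean lay on opposite sides of 0 in 1 of the 42, *Grid1*, where the background was 1.54% of protein-coding genes. Among genes over 200 kb it was 136 of 953, against 1 of 12 members of that length. Every body mean includes the start bin, and for 11 members on a single bin both are the same value. RT at or above 1 and at or below -1 within a body, a change of side at these limits, was found in *Grid1* and *Gabrb1*. The background was 0.497% of all protein-coding genes and 10.1% of those over 200 kb. There are 12 members over 200 kb.

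In *Grid1* (chr14:34820108-35583379, plus strand) RT went from 2.57 in the start bin through 1.89, 1.24, 0.41 and -0.06 and on to -3.56, and was -2.74 in the last bin. A straight line between bin centers crossed 0 at 35019026, 199 kb inside the gene, in an intron. Bins of 50 kb do not resolve a single position, and the bin at -0.06 is within the noise SD of 0.14. The intron call holds for the interpolated position only. *Gabrb1* (chr5:71658113-72149037, plus strand) ran the other way, from -3.59 at its start to 1.81 at its end. Its crossing, interpolated in the same way, was at 72008230, 350 kb inside the gene and also in an intron. The promoter of *Grid1* thus lay in early and that of *Gabrb1* in late replicating DNA, although RT changed sides within both genes. Timing transition regions as such were not called.

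Other long members stayed on one side. *Gabrg3*, 671 kb, ranged from -4.25 to -3.38, and *Grik2*, 694 kb, from -3.19 to -1.95. *Grik4*, 426 kb, stayed above 0, with a dip to 0.31 between 1.99 at its start and 1.49 at its end. *Grin2a* and *Grin2b* had a similar shape on the late side, with the lowest bins, -1.26 and -2.53, inside the gene.

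**Figure D3:**
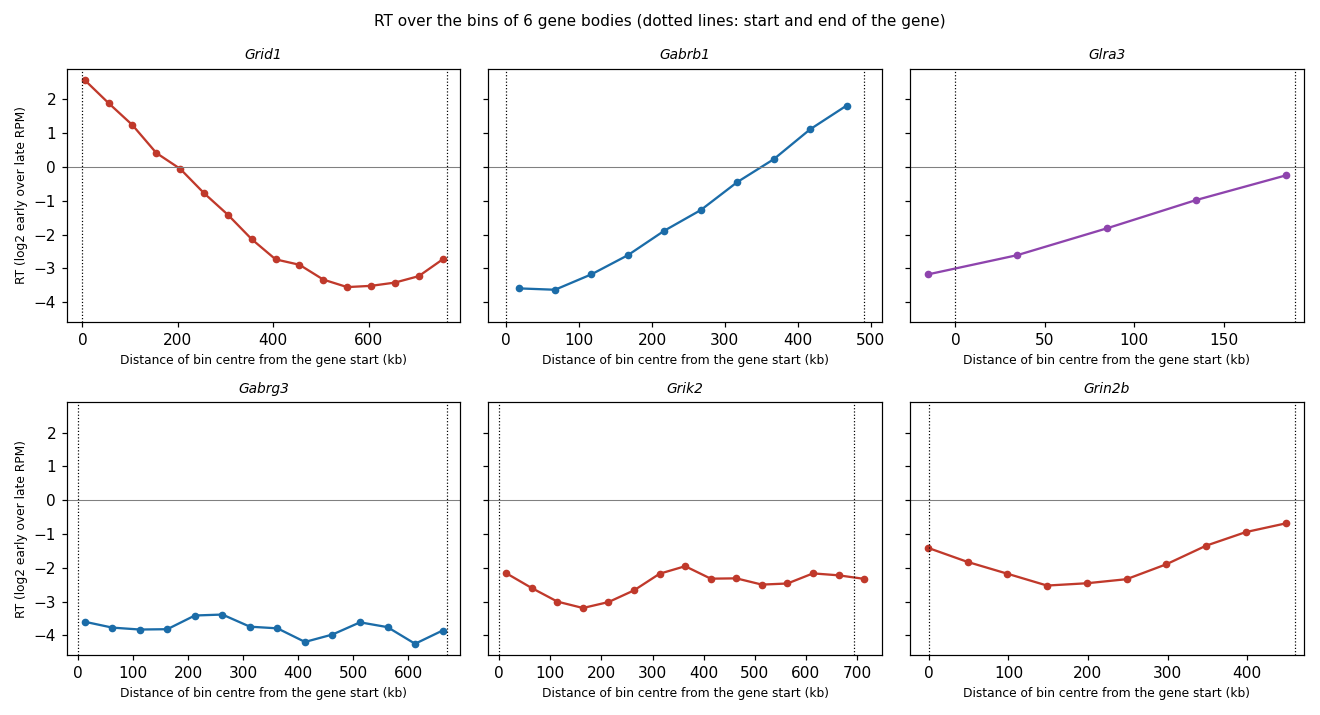
RT (log2 of early over late RPM) in each 50 kb bin of 6 gene bodies against distance of the bin center from the gene start in kb, with dotted lines at the start and end of the gene. *Grid1* and *Gabrb1* cross 0 in opposite directions, *Glra3* approaches 0 at its end, and *Gabrg3*, *Grik2* and *Grin2b* stay below 0.

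Relative to the surrounding 500 kb on either side, the start bin stood at least 1 above the mean in 4 members, *Grid1*, *Chrnb3*, *Grin2d* and *Gabrr3*, where the background was 20.9%. It stood at least 1 below in 5, *Grin2b*, *Gabrb1*, *Gabra4*, *Grik1* and *Glra3*, where the background was 7.47%. Of these, *Gabrb1* and *Gabra4* share a start bin, so the same value is counted for both. In *Grin2b* and *Grin2a* the mean of the surroundings was 0.07 and 0.54, above 0, while the start bins were below 0.

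Early and late members tended to differ in length and surroundings, which the choice of members did not use. The median length was 75.5 kb for members and 17.7 kb for all protein-coding genes. Of members under 50 kb, 18 of 19 had an RT above 0 at the start, where the background for that length was 75.2%, and the exception was *Gabra6*. From 50 to 200 kb it was 2 of 11 (background 76.5%), and over 200 kb 3 of 12 (background 46.4%), namely *Grid1*, *Grik3* and *Grik4*. The nicotinic genes are short, with a median of 18.4 kb, and 12 of the 13 are under 50 kb. Glutamate receptor genes have a median of 271 kb. Their 4 members under 50 kb, *Grin1*, *Grin2c*, *Grin2d* and *Grin3b*, were all above 3, and 3 of 9 over 200 kb were above 0. The parts of family and length in these counts were not tested.

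Over the 42 members, RT at the start had a Spearman rank correlation of -0.63 with gene length, of 0.82 with the GC content of the start bin and of 0.83 with the number of other protein-coding gene starts within 500 kb. Over all protein-coding genes the values were -0.06, 0.74 and 0.41. Within families, the correlation with length was -0.67 over GABA-A, -0.6 over glutamate receptor and -0.37 over nicotinic genes. In the same order it was 0.56, 0.83 and 0.61 with GC content, and 0.90, 0.67 and 0.82 with the number of gene starts. These are descriptions across genes that share bins, domains and base composition. Members had a median of 9 other gene starts within 500 kb, against 16 for all protein-coding genes, and GABA-A genes had 2. *Grik2* and *Gria1* had 0.

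**Figure D4:**
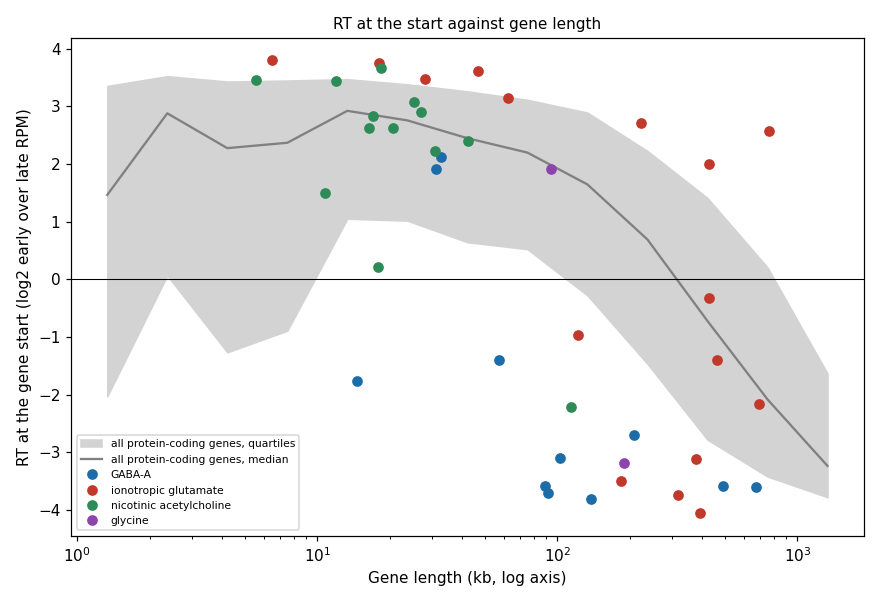
RT at the start (log2 of early over late RPM) of each member against gene length in kb on a log axis, with the median (line) and quartiles (band) of all protein-coding genes in steps of length. Of members under 50 kb 18 of 19 lie above 0, and 9 of the 12 over 200 kb lie below it.

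Where a promoter entry was available, late members held about as many CpGs at the median as early members. The RefSeq table has an entry for 32 members, and in 29 of them it lies within 1 kb of the GENCODE start used for RT. All 11 GABA-A genes are among the 29, but 9 of 16 glutamate receptor genes, without the late *Gria1*, *Grik1*, *Grin2a*, *Grin2b* and *Grin3a*. The median number of CpGs was 11 in these GABA-A and 26 in these glutamate receptor genes. Across these 29, the median number of CpGs in 300 bases was 12 in the 15 members with RT above 0 and 13 in the 14 with RT below 0. Among all protein-coding genes with such an entry, the medians were 19 and 5. The number of CpGs had a rank correlation of -0.08 with RT over the 29 members and of 0.29 over 13516 genes, as a description. Within families it was -0.66 over 11 GABA-A genes, -0.65 over 8 nicotinic genes and -0.26 over 9 glutamate receptor genes, so the value over all members combines families that differ in RT. At least 1 CpG was found in 94.8% of all 31396 autosomal promoters of this length.

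The sequences shown above give examples of both kinds. Late *Chrna7*, *Gabra2* and *Gria4* hold 35, 25 and 17 CpGs and late *Glra3* holds 8. Early *Gabrr2* and *Grin3b* hold 2 and 3, and early *Chrnb2* 12. For comparison, genes with RT from -4 to -3 have a median of 2 CpGs and an upper quartile of 9, and the promoters of *Gabra2*, *Gabrb1*, *Gabrg3*, *Gabra4*, *Gabra5* and *Gria4*, all in that interval, hold between 12 and 25. In the same interval *Gabrg1* holds 3 and *Glra3* 8. Early members with high numbers were *Grik3* with 50, *Grik4* with 42 and *Grin1* with 33.

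**Figure D5:**
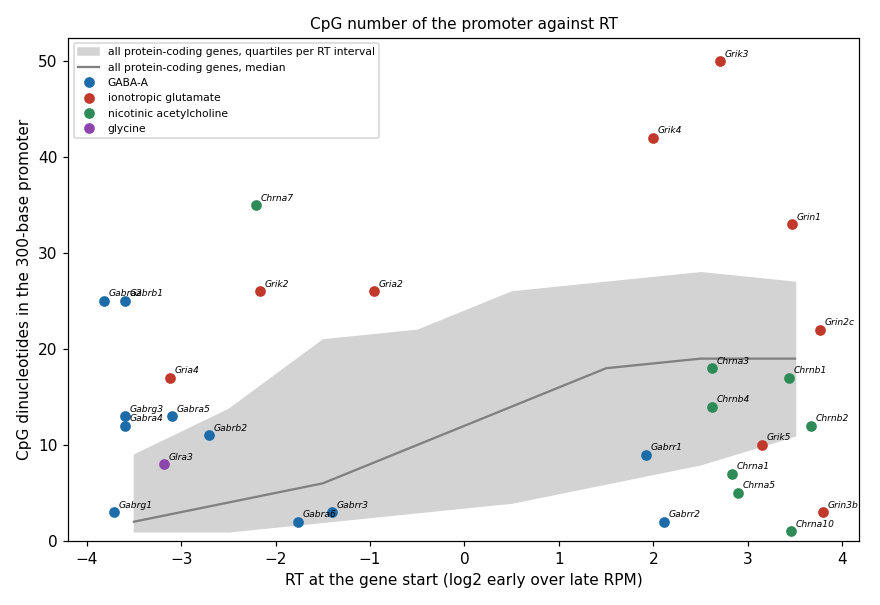
Number of CpGs in the 300-base promoter against RT at the gene start (log2 of early over late RPM) for the 29 members with a promoter entry within 1 kb, with the median (line) and quartiles (band) of all protein-coding genes in RT intervals of 1. The background median goes from 2 in the latest interval to 19 in the earliest, while over the members the rank correlation is -0.08, and -0.66 within the GABA-A and -0.65 within the nicotinic genes.

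Other genes related to ligand-gated channels and their transmitters were read from 4 lists, to be set beside the 74.1% of all protein-coding gene starts above 0. Subunits of ligand-gated channels outside the naming rule had 15 of 15 starts above 0 with a median of 3.21. Most of them belong to channels of other transmitters, namely the ATP-gated *P2rx1* to *P2rx7* and the serotonin-gated *Htr3a* and *Htr3b*. The 15 starts are not independent, as some lie close together, such as *Htr3a* with *Htr3b* and *Chrnd* with *Chrng*. The latest of the 15 is *Glrb*, the beta subunit of glycine receptors, at 0.46 with a body mean of -0.23. The earliest is *Gabrp*, a GABA-A subunit found mostly outside the brain, at 3.80. The median length of the 15 is 15.9 kb, where that of the other lists, in the order given, is 140 kb, 63.3 kb and 49.0 kb. The muscle nicotinic subunits *Chrnd*, *Chrne* and *Chrng* were at 3.41, 3.21 and 3.53. Metabotropic receptors of the same transmitters, which signal through G proteins, had 8 of 15 above 0 with a median of 0.66, and ran from *Chrm3* at -4.09 to *Grm4* at 3.66. Auxiliary, assembly and scaffold genes had 21 of 30 above 0, close to the background, with a median of 2.02. *Neto1*, an auxiliary subunit of kainate receptors, was the latest at -3.95, and *Clptm1*, which retains GABA-A subunits in the endoplasmic reticulum, the earliest at 3.62. Genes for synthesis and transport of the transmitters had 14 of 20 above 0, also close to it, with a median of 1.29, from *Slc5a7*, the choline transporter, at -3.63 to *Slc17a7*, a vesicular glutamate transporter, at 3.88.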

How the data were processed

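The profile is that of population Repli-seq in 4 libraries of diploid F121-9 mESCs, 2 of each S-phase fraction. The authors scaled reads of each fraction to RPM and deposited 1 log2 ratio, early over late, for each of 51427 bins of 50 kb. The submitters' processing notes name mm10, Bowtie2, SAMtools and bedtools. Whether and how replicates were combined, and whether bins were filtered or smoothed, is not given in the sources used here. Read depth is unknown, so no interval for a bin can be given.

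Genes and starts are those of GENCODE vM21 on GRCm38 (mm10). RT at the start is that of the bin holding the 5' end, and the body mean covers every bin that overlaps the gene. Positions count from 1. GC content was counted in the GRCm38.p6 sequence. A cluster joins members whose starts follow within 1 Mb, and a run is an unbroken stretch of bins on one side of RT 0, with gaps of up to 200 kb allowed. No promoter was used for *Chrna2*, *Chrna6*, *Chrnb3*, *Glra1*, *Gria1*, *Grid1*, *Grik1*, *Grin2a*, *Grin2b* and *Grin3a*, and the entries of *Grin2d*, *Chrna4* and *Chrna9* lie farther than 1 kb from the start used. Of the 46 genes that the naming rule takes, 4 are not reported here and enter only the alternatives with all 46 genes. Of the planned steps, the comparison of protein sequences was not made. The rule for named genes took the earliest and latest start of each family, all clusters, the 5 longest members, those between RT -1 and 1 and those spanning RT 1 and -1, and each other reported member at its start. Members and lists were chosen with earlier results of these data known. Alternatives covered smoothing, the window at the start, the limits, chromosome X, clusters and missing bins. The reading of RT at the start and over the body was checked on a simulated profile of early and late plateaus, far from the limits and without slopes. Runs, clusters, crossings, promoters and correlations were not checked there. Python 3.11.15 with numpy 2.4.6, pandas 2.3.3, scipy 1.17.1 and matplotlib 3.10.9 was used.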

Additional observations from a re-analysis of the deposited data

How the results depend on the processing

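No paired analysis was possible because there is 1 RT value per bin and none per library, and for the same reason no library could be left out. In all, 36 alternatives were run, of which 5, with all 46 genes that the naming rule takes, were chosen after seeing the data. No member lies near missing bins, so the 5 that leave out such genes repeat the values and test nothing. In 27 of the other 31 the value lay inside its interval or, for a count, within 1.5 times, and in 4 it moved. The share of starts above 0, 54.8%, stayed between 50% with the 4 members on chromosome X added and 59.5% with the mean within 500 kb of the start, and was 54.3% with all 46 genes. Members spanning early and late numbered 1 with limits at RT 2 and -2. Members with start and body mean on opposite sides of 0, 1 of 42, numbered 3 with the mean within 500 kb of the start, 2 with the cut at the median RT of all bins and 2 with all 46 genes. The median RT at the start, 1.71, was 0.24 with all 46 genes, -0.05 with X added and 1.92 with clusters counted once, and the median body mean, 0.60, was -0.16, -0.65 and 1.06. These lie inside wide intervals, since few members are near 0. The number of GABA-A starts above 0 lay between 2 and 3, of glutamate receptor starts between 7 and 10, and of nicotinic starts at 12 throughout, on the autosomes. With the mean within 500 kb of the start, *Grin2a* and *Grin2b* moved to 0.54 and 0.07. The cut at the median RT of all bins put *Grin2a* on the early side. The files give no depth, so what depth limits cannot be said.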
